A study of Mus musculus with 10 samples.

Results

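The collagen and laminin chains are the 55 protein-coding genes, of 56748 genes counted, whose symbols name an alpha chain of a collagen (44 genes) or an alpha, beta or gamma chain of a laminin (11 genes). They were taken by symbol alone, with no use of their levels. RNA-seq of 5 mouse brain samples sorted for CD11b, with 400000 cells taken for each (here microglia), was compared with RNA-seq of 5 hemi-brain samples (here bulk brain). The mice of both groups were young males of the C57BL/6 strain with no treatment given in the labels, the RNA was selected by its poly-A tail, and the labels give the same batch value to each sample. Whether each sample was a separate animal is not in the labels, and a p-value here therefore reflects how much these libraries vary, which may be technical.

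Collagens are secreted or membrane-bound proteins made of alpha chains wound into a helix, and laminins are cross-shaped proteins made of an alpha, a beta and a gamma chain. Type IV collagen and laminin each form a sheet, and the sheets, joined by nidogen and perlecan, make the basement membrane that surrounds brain blood vessels and underlies the surface of the brain. Fibrillar collagens belong mainly to the meninges and to the outer wall of larger vessels, and some transmembrane and fibril-associated collagens are made by neurons.

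Total counts were 25087489 to 28514509 in the microglia libraries and 25845049 to 34709215 in those of bulk brain. Levels are CPM, the counts divided by the scaled library total and multiplied to a common size, given as mean ± SD over the 5 libraries of a group. The 8 microglia markers, among them Itgam, which encodes CD11b, summed to 30899 CPM in microglia against 225 CPM in bulk brain. In bulk brain, replicates 1 and 2 stood apart from replicates 3 to 5 for many members. Both lay below the other 3 replicates for 27 of the 55 members and above them for 8, so the members' counts were also taken against each set of bulk brain libraries alone. The split was not particular to the members, since replicates 1 and 2 also lay above the others for all 8 oligodendrocyte markers. Its share over all genes was not counted.

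Microglia had high levels of a few chains and low levels of most others. Col27a1, Col15a1, Col6a3 and Col14a1 rose, at 3.48 to 33.9 times the bulk brain mean, and 48 chains fell, among them the 6 type IV collagen chains and 10 of the 11 laminin chains. Lamb2 did not pass the test, and Col6a6 and Col10a1 were too low to be tested. The test was edgeR's quasi-likelihood test, with p-values adjusted by Benjamini-Hochberg over the 18969 genes tested and a threshold of 0.05. Of all genes tested, microglia were higher for 37.2% and lower for 43.9%. The members' median log2 difference, microglia minus bulk brain, was −5.00 (−4.98 with the members that had 0 counts in microglia set to their bound), and that of all genes tested was −0.14. Of the 53 tested members, 15 had enough counts in both groups and 38 passed the low-count filter through bulk brain alone. Each of those 38 had a microglia library under the filter's cutoff, which favoured a lower level without fixing it. Among the 15, 4 rose, 10 fell and 1 did not pass, and their median log2 difference was −1.81. The groups' values did not overlap for 49 of the 55 members, with bulk brain above for 45 and microglia above for 4. The share without overlap over all genes was not counted, so these numbers do not set the members apart from other genes. Against bulk brain replicates 3 to 5 alone 4 members rose and 49 fell, and against replicates 1 and 2 alone 4 rose and 45 fell. In such samples, fewer cells of a type and less RNA per cell cannot be told apart.

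**Figure D1:**
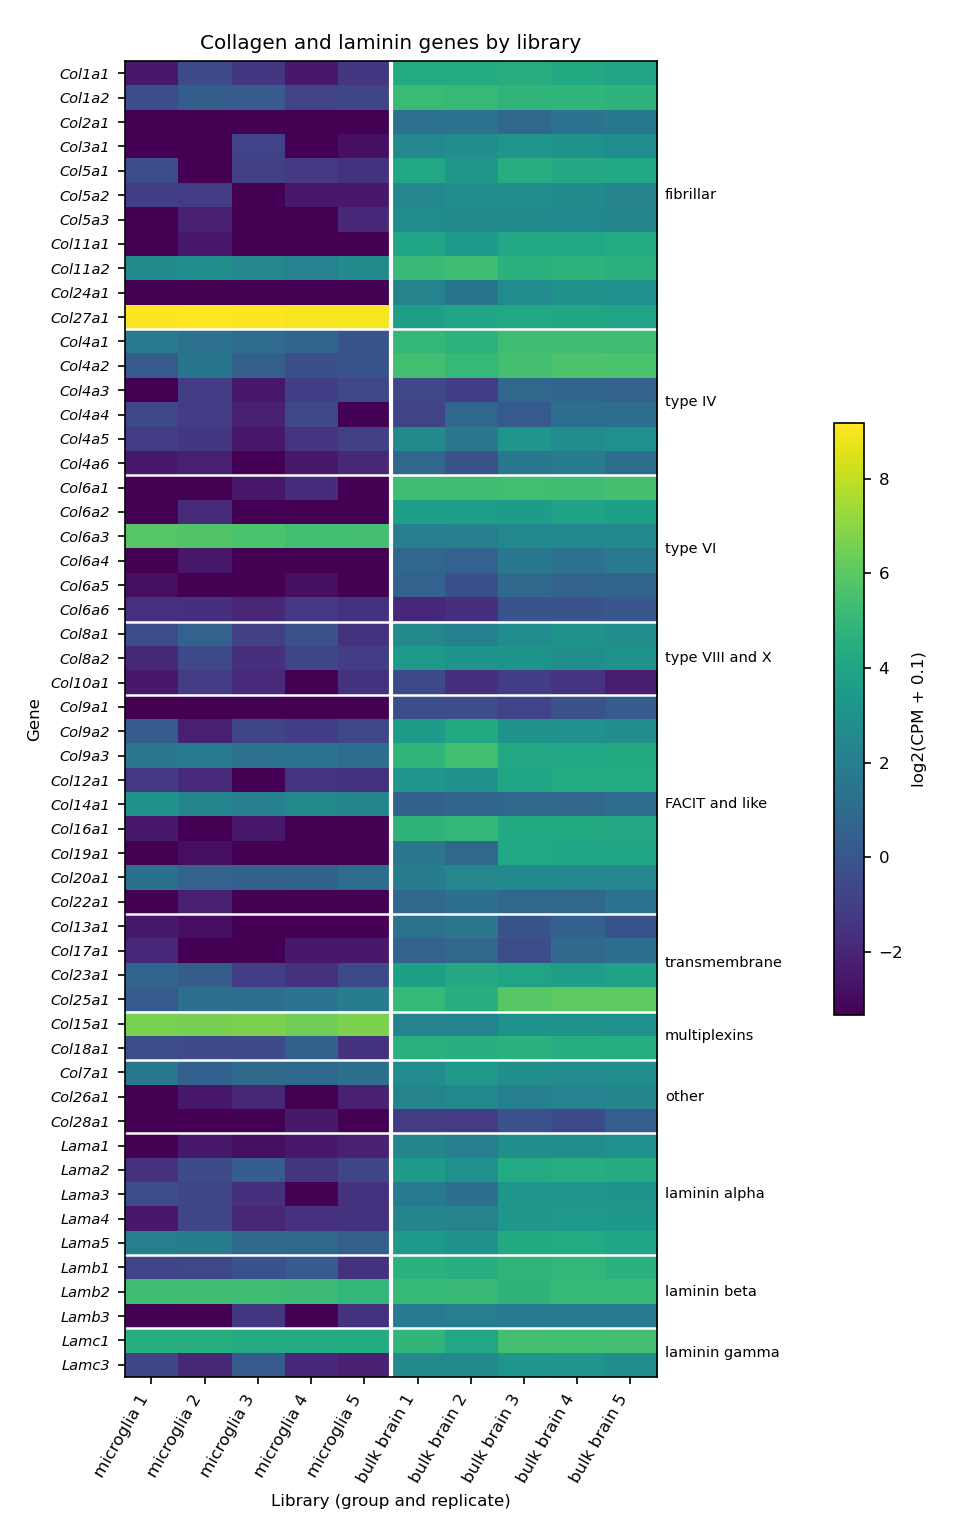
The heat map shows 54 of the 55 genes (rows, ordered by the role of the chain) in the 10 libraries (columns), coloured by log2(CPM + 0.1). The rows of Col27a1, Col15a1, Col6a3 and Col14a1 are brighter in the 5 microglia libraries, whereas most other rows are dark there and brighter in bulk brain.

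The chains together made up 781.7 ± 42.3 CPM in microglia, between 731 and 829 over the libraries, and 699.4 ± 64.9 CPM in bulk brain, between 616 and 755. The 4 chains that were higher held 88.7% of this sum in microglia and 4.19% in bulk brain. The other 51 chains summed to 88.2 CPM in microglia against 670.2 CPM in bulk brain, and without Lamb2 and Lamc1 the remaining 49 summed to 30.0 and 603 CPM. At least 10 CPM was reached by 5 chains in microglia and by 23 in bulk brain.

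To show the DNA before the start sites of chains that moved in opposite directions, the 250 bases before the start are printed for Col27a1, Col15a1 and Col6a3 and for Col6a1, which had the highest level per length of the 55 in bulk brain and whose product assembles with that of Col6a3. The sequences are from RefSeq on GRCm38.p6, 5′ to 3′ on the gene's strand. Col14a1, the other higher chain, had no entry among these sequences. Capitals mark matches, on either strand, to GAGGAA (part of the longer site GAGGAAGT of PU.1, an ETS factor), TGACTCA (AP-1) and GGGCGG (SP1). Other forms of ETS sites were not searched, so unmarked letters can include them. The windows lie at chr4:63215162-63215411 (plus strand) for Col27a1, chr4:47207762-47208011 (plus) for Col15a1, chr1:90843972-90844221 (minus) for Col6a3 and chr10:76726045-76726294 (minus) for Col6a1.
Col27a1: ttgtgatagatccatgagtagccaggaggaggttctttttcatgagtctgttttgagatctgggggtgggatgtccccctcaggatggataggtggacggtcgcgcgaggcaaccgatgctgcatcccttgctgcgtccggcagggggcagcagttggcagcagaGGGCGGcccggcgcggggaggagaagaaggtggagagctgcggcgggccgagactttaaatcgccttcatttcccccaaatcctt
Col15a1: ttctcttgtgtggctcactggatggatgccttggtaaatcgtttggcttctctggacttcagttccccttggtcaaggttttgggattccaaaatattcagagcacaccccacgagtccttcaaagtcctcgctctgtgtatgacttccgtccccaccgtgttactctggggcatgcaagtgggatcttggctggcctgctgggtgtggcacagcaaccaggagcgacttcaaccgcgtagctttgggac
Col6a3: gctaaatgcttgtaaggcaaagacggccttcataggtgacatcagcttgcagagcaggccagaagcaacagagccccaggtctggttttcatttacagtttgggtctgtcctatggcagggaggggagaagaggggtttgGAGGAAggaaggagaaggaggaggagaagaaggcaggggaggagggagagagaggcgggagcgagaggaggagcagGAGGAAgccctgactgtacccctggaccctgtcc
Col6a1: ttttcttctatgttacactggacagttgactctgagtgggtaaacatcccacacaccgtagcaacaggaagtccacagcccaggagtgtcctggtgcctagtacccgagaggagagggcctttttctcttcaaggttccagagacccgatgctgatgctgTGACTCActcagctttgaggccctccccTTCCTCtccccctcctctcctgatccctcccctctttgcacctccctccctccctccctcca

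The Col27a1 window held 15 CpG dinucleotides and 1 GGGCGG, against a median of 6 CpG in the 32851 windows of the RefSeq table. The Col15a1 window held 8 CpG and none of the motifs searched, the Col6a3 window 3 CpG and 2 GAGGAA, and the Col6a1 window 3 CpG, 1 TGACTCA and 1 GAGGAA read on the other strand as TTCCTC. Of all windows, 23.3% held GAGGAA, 32.7% GGGCGG and 4.46% TGACTCA. The longer PU.1 site GAGGAAGT, which contains GAGGAA, was in none of these 4 windows and in 2.44% of all windows. TATAAA (12.4% of all windows) and CCAAT (33.8%) were searched as well and had no match in the 4. A match is a description of the letters and not a site shown to be bound.

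Among the fibrillar collagens, 1 of 11 chains rose and 10 fell, and 8 passed the low-count filter through bulk brain alone. Col27a1 (ENSMUSG00000045672, chromosome 4, 63132241 to 63253228, plus strand, GRCm39), a fibrillar chain known from cartilage, was at 554, 574, 542, 512 and 516 CPM in microglia replicates 1 to 5 and at 13.4, 16.5, 17.3, 16.7 and 15.6 CPM in bulk brain. Every microglia library was thus far above every bulk brain library, and neither group had a replicate far from its others. The means were 539.5 ± 26.0 and 15.9 ± 1.498 CPM (SD, n = 5 each), a 33.9-fold difference. The log2 difference was 5.08 ± 0.11 (SE), with an edgeR adjusted p of 7.2e-12. Per kb of gene length the Col27a1 level was 41.4 CPM in microglia, where 984 of the 15029 tested coding genes were higher. The bulk brain mean of Col27a1 was 2.95% of its microglia mean, while the bulk brain means of the 8 microglia markers were 0.533 to 2.26% of theirs.

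The chains of the common fibrils were low in microglia. Col1a1, which with Col1a2 forms type I collagen, was at 0.0795, 0.621, 0.308, 0.0796 and 0.292 CPM in microglia and at 19.5, 20.4, 22.1, 18.8 and 15.6 CPM in bulk brain. Col1a2 had 0.787 ± 0.332 CPM in microglia against 31.0 ± 3.80 CPM in bulk brain, and Col3a1, the chain of type III collagen, 0.101 ± 0.203 and 7.27 ± 1.28 CPM. For these 3 genes no microglia library reached the lowest bulk brain library, and the log2 differences were −6.10, −5.29 and −6.09 (edgeR adjusted p of 4.4e-08, 3.5e-09 and 1.1e-05). Most of the 13 microglia counts of Col3a1 were in replicate 3, and without it the log2 difference was −8.99.

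The type V and type XI chains, which join the common fibrils and limit their width, fell as well. The log2 differences of Col5a1, Col5a2 and Col5a3 lay between −6.61 and −5.03, and that of Col5a3, the lowest, was −7.44 without microglia replicate 5. Col11a1 had 2 counts over the 5 microglia libraries but 16.3 ± 3.42 CPM in bulk brain, a ratio of 1028 with a 95% counting interval of 284 to 8491. Col11a2 kept more of its level, at 5.96, 7.37, 5.32, 4.58 and 6.17 CPM in microglia and 33.9, 38.3, 25.1, 26.5 and 24.1 CPM in bulk brain, with a log2 difference of −2.33 ± 0.18 (edgeR adjusted p of 2.0e-07). Its groups did not overlap, and its bulk brain replicates 1 and 2 were the highest. Col2a1, the chain of cartilage fibrils, and Col24a1 had 0 counts in microglia. With a floor of 3 counts over the 5 libraries they were at least 109-fold and at least 248.6-fold lower than in bulk brain.

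The chains of type VI collagen, a beaded microfibril that joins the chains of Col6a1 and Col6a2 to a further chain such as that of Col6a3, went in opposite directions. Col6a3 (ENSMUSG00000048126, chromosome 1, 90693645 to 90771693, minus strand) was at 58.7, 54.8, 48.6, 41.6 and 43.6 CPM in microglia and at 3.92, 4.27, 5.64, 5.67 and 5.56 CPM in bulk brain. Its groups were far apart, with means of 49.5 ± 7.27 and 5.01 ± 0.849 CPM and a log2 difference of 3.30 ± 0.16 (edgeR adjusted p of 3.0e-09). Col6a1 was at 0, 0, 0.0771, 0.199 and 0 CPM in microglia, 7 counts in all, and at 40.9, 40.2, 42.1, 40.6 and 46.1 CPM in bulk brain. Col6a2 was at 0 CPM in 4 microglia libraries and at 0.194 CPM in replicate 2, 5 counts in all, and at 13.1, 12.9, 11.9, 14.6 and 13.8 CPM in bulk brain. Both genes were thus at or near 0 in each library in which Col6a3 was high, and both passed the low-count filter through bulk brain alone. Their log2 differences were −9.46 ± 0.44 and −8.24 ± 0.58 (edgeR adjusted p of 2.1e-09 and 7.8e-08). Both moved with 1 library, to −10.76 for Col6a1 without microglia replicate 4 and to −11.63 for Col6a2 without microglia replicate 2, where no count was left in microglia and the fitted value depends on the prior count. Per kb of gene length, the bulk brain levels were 9.59 CPM for Col6a1, 1.59 for Col6a2 and 0.419 for Col6a3, and the microglia levels were 0.0126, 0.00466 and 4.13.

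The alternative chains Col6a4 and Col6a5, which can take the place of Col6a3, had 2 counts each over the microglia libraries. Their ratios of bulk brain to microglia were 153 (95% counting interval 42.0 to 1266) and 86.3 (23.6 to 717). Col6a6 was at 0.239 ± 0.0584 CPM in microglia against 0.594 ± 0.366 CPM in bulk brain and was not tested.

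**Figure D2:**
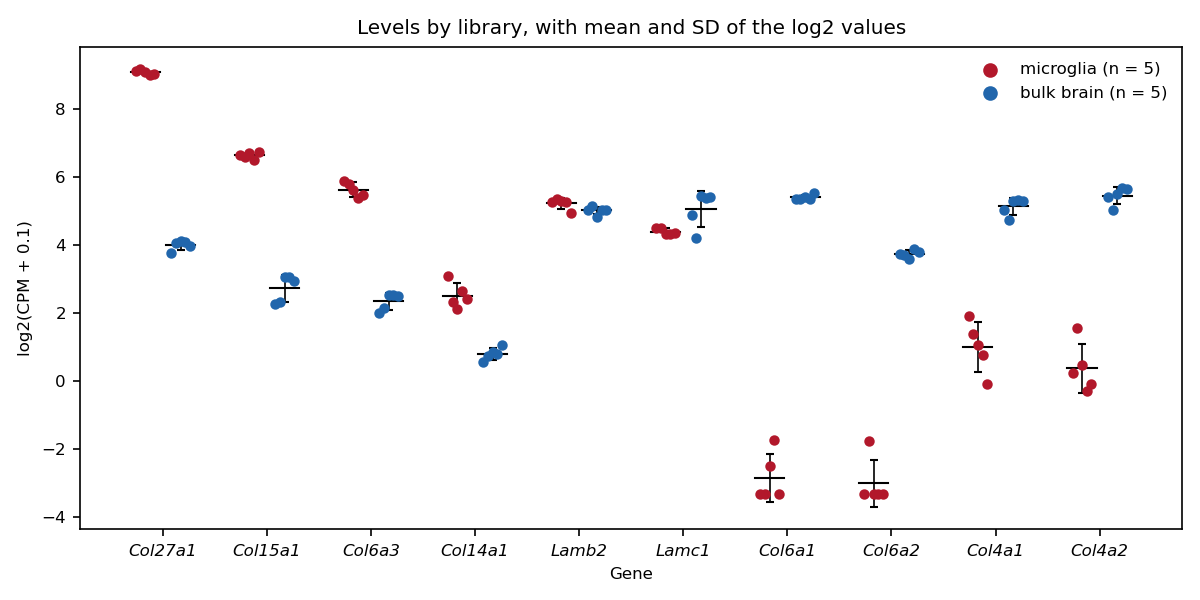
Points are single libraries of microglia (red) and bulk brain (blue) for 10 chains, on a log2(CPM + 0.1) axis, with bars for the mean and SD of the log2 values. The microglia points lie above the bulk brain points for Col27a1, Col15a1, Col6a3 and Col14a1, among them for Lamb2 and Lamc1, and below them for Col6a1, Col6a2, Col4a1 and Col4a2.

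The multiplexins Col15a1 and Col18a1, collagens of the basement membrane zone that carry sugar chains and end in a fragment of the endostatin family, also differed in direction. Col15a1 (ENSMUSG00000028339, chromosome 4, 47208161 to 47313167, plus strand) was at 99.7, 95.9, 104, 89.2 and 105 CPM in microglia and at 4.74, 4.85, 8.22, 8.14 and 7.57 CPM in bulk brain. The groups were far apart, and within bulk brain replicates 1 and 2 were the lowest. The means were 98.7 ± 6.39 and 6.70 ± 1.76 CPM, with a log2 difference of 3.88 ± 0.19 (edgeR adjusted p of 2.6e-09). Col18a1, whose cleaved end is endostatin, was at 0.676, 0.659, 0.617, 1.31 and 0.250 CPM in microglia and at 23.8, 22.5, 24.7, 21.5 and 20.9 CPM in bulk brain, with a log2 difference of −5.00 (edgeR adjusted p of 2.5e-08). Col18a1 passed the low-count filter through bulk brain alone. Part of its span is shared with Slc19a1 on the opposite strand, and the strand setting of the counts is not given.

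Among the fibril-associated collagens (FACIT and FACIT-like), which bind the surface of other fibrils, 1 of 9 rose and 8 fell. The low-count filter was passed through bulk brain alone by 6 of the 9. Col14a1 (ENSMUSG00000022371, chromosome 15, 55171146 to 55384199, plus strand) was at 8.38, 4.89, 4.20, 6.09 and 5.17 CPM in microglia and at 1.37, 1.56, 1.71, 1.63 and 1.98 CPM in bulk brain. Its groups did not overlap, and the log2 difference was 1.80 ± 0.23 (edgeR adjusted p of 1.8e-05). The genes that overlap the spans of the 4 higher chains had 0 counts in the microglia libraries.

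The type IX chains assemble as Col9a1, Col9a2 and Col9a3. Col9a3 was at 3.02, 3.45, 2.47, 2.59 and 2.13 CPM in microglia and at 28.4, 41.1, 18.6, 18.0 and 19.4 CPM in bulk brain, and Col9a2 had 0.526 ± 0.348 and 10.7 ± 4.82 CPM. Bulk brain replicates 1 and 2 were the highest for both genes, and the microglia libraries lay below all 5. The log2 differences were −3.20 and −4.34 (edgeR adjusted p of 4.1e-07 and 4.2e-06). Col9a1, at 0.739 ± 0.2404 CPM in bulk brain, had 0 counts in microglia, which is lower by at least 31.6-fold.

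Col16a1 had 4 counts in microglia and was at 27.8, 30.8, 18.9, 19.2 and 18.4 CPM in bulk brain, with a log2 difference of −9.32 (edgeR adjusted p of 3.4e-09). Col19a1, which is known from interneurons, had 1 count in microglia and was at 3.04, 1.73, 17.1, 16.3 and 16.4 CPM in bulk brain. Its bulk brain replicates 1 and 2 were far below the other 3, opposite to those of Col16a1. The ratio of bulk brain to microglia was 1334 with a 95% counting interval of 239 to 52739. Col12a1, Col20a1 and Col22a1 fell too, with Col20a1 the smallest fall of the FACIT chains at −1.61 on the log2 scale (edgeR adjusted p of 5.5e-05), beside an overlapping non-coding gene, 9230112E08Rik, with counts in both groups.

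The 4 transmembrane collagens, single-pass membrane proteins that can be shed, fell with log2 differences between −5.93 and −4.23. The lowest, that of Col13a1 on 3 microglia counts, was −6.91 without microglia replicate 1. Bulk brain alone took 3 of the 4 through the low-count filter. Col25a1, a neuronal chain that binds amyloid-beta, was at 1.15, 2.37, 2.16, 2.59 and 3.67 CPM in microglia and at 33.2, 22.9, 61.4, 67.9 and 67.4 CPM in bulk brain. The lowest bulk brain libraries, replicates 1 and 2, were still above every microglia library, and the log2 difference was −4.40 (edgeR adjusted p of 5.9e-07), or −3.64 against those 2 libraries alone. Col23a1 had 0.792 ± 0.568 CPM in microglia against 14.9 ± 2.24 CPM in bulk brain, and Col13a1 and Col17a1 were under 2 CPM in both groups on average. Of the network chains of types VIII and X, Col8a1 and Col8a2, which belong to vessel walls and the cornea, fell, and Col10a1 was at 0.174 ± 0.138 and 0.322 ± 0.188 CPM and not tested. Col7a1, the chain of anchoring fibrils, fell by 1.81 on the log2 scale (edgeR adjusted p of 4.6e-05), and Col26a1 and Col28a1 fell as well.

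**Figure D3:**
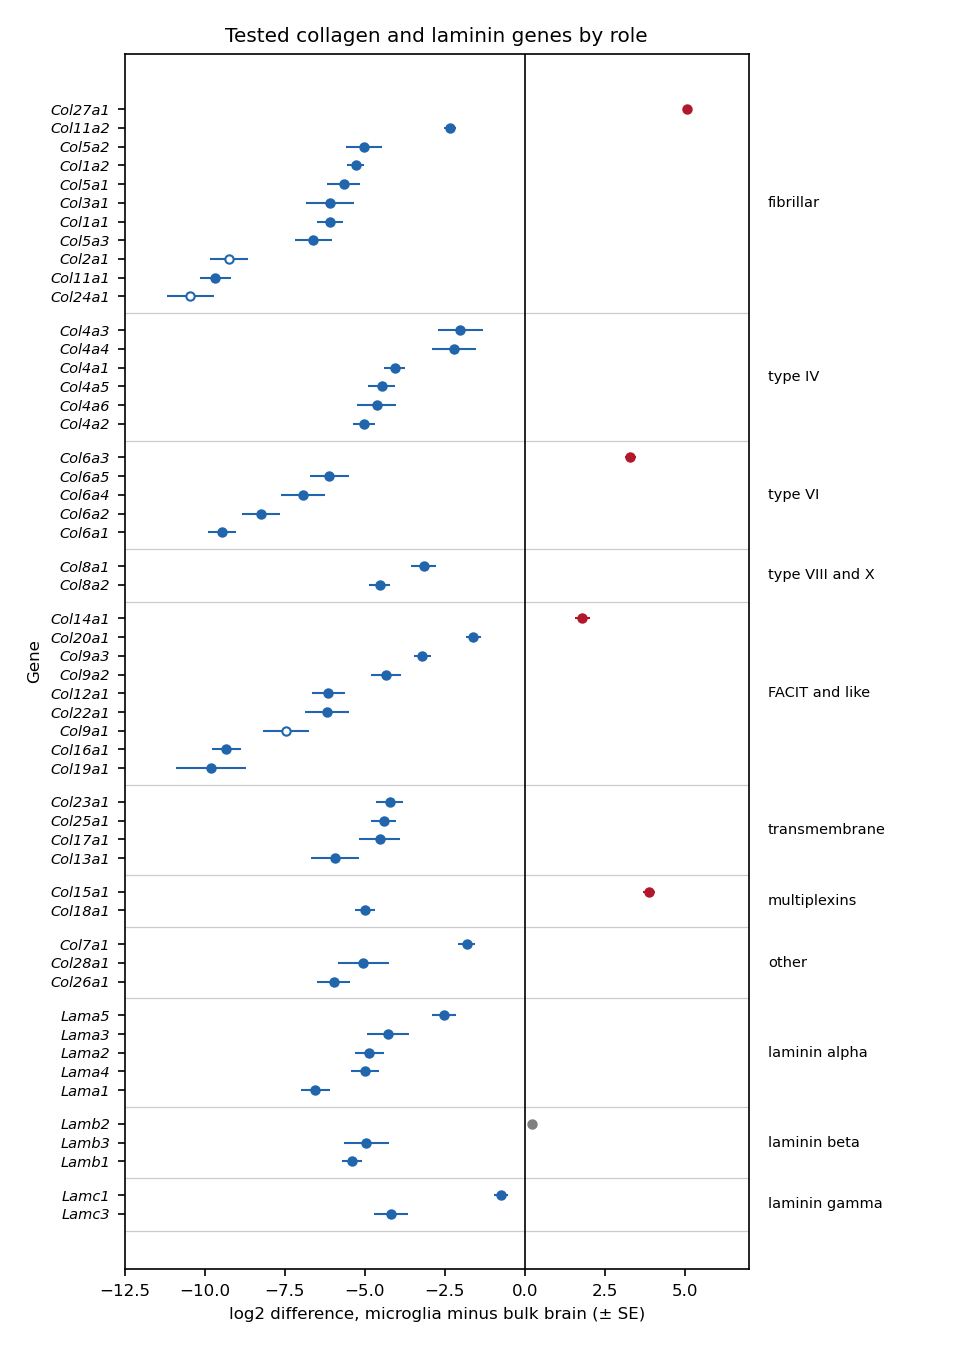
Each point is the log2 difference (microglia minus bulk brain) of 1 of 52 of the 53 tested chains with its SE, ordered by role, in red for higher, blue for lower and grey for not past the threshold. Open points had 0 counts in microglia, so that their fitted value depends on the prior count. The red points lie 1 each among the fibrillar, type VI, FACIT and multiplexin groups.

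All 6 type IV collagen chains fell, and 4 of them passed the low-count filter through bulk brain alone. Col4a1, which with Col4a2 forms the common network of vessel basement membranes, was at 3.62, 2.52, 1.97, 1.59 and 0.834 CPM in microglia and at 32.3, 26.5, 39.0, 39.6 and 39.1 CPM in bulk brain. Col4a2 was at 1.07, 2.83, 1.27, 0.716 and 0.834 CPM in microglia and at 41.8, 32.7, 44.9, 50.2 and 49.7 CPM in bulk brain. No microglia library of either gene came near the lowest bulk brain library, replicate 2, and the log2 differences were −4.06 ± 0.32 and −5.02 ± 0.35 (edgeR adjusted p of 2.3e-07 and 6.9e-08).

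Col4a5, a chain of the minor networks, was at 0.358, 0.310, 0.0771, 0.279 and 0.417 CPM in microglia and at 6.02, 2.94, 9.21, 6.33 and 7.62 CPM in bulk brain. Col4a6, its partner, was at 0.0795, 0.116, 0, 0.0796 and 0.167 CPM and at 1.62, 0.837, 3.06, 3.83 and 2.06 CPM. Both had separate groups, with log2 differences of −4.46 and −4.63 (edgeR adjusted p of 1.1e-06 and 2.0e-05), the latter −3.84 against bulk brain replicates 1 and 2 alone. Col4a3, known with Col4a4 from the kidney filter, was at 0, 0.388, 0.0771, 0.398 and 0.542 CPM in microglia and at 0.548, 0.404, 1.75, 1.60 and 1.43 CPM in bulk brain. Col4a4 was at 0.556, 0.388, 0.116, 0.557 and 0 CPM and at 0.493, 1.70, 1.06, 2.17 and 2.15 CPM. The groups of Col4a3 and of Col4a4 overlapped, through bulk brain replicate 2 for Col4a3 and replicate 1 for Col4a4. Their log2 differences of −2.01 and −2.21 (edgeR adjusted p of 0.020 and 0.0098) were −0.85 and −1.80 against bulk brain replicates 1 and 2 alone, with adjusted p of 0.41 and 0.081.

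The type IV genes stand in head-to-head pairs on chromosomes 8, 1 and X. The annotated starts of Col4a1 and Col4a2 lie 21 bases apart with overlapping spans, those of Col4a4 and Col4a3 72 bases apart, and those of Col4a6 and Col4a5 1309 bases apart. Over the 55 members, 9 neighbouring pairs lie within 100 kb of each other, and both genes fell in 8 of them. The other pair includes the untested Col6a6. Since 48 of the 53 tested members fell, a pair in which both fell is the common case at any distance. None of the 4 higher chains has another member within that distance.

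The 5 laminin alpha chains, which carry the receptor-binding end of the molecule, fell, and 4 passed the low-count filter through bulk brain alone. Lama2, a chain of the astrocyte and muscle basement membrane, was at 0.238, 0.621, 1.16, 0.279 and 0.5002 CPM in microglia and at 11.7, 7.56, 20.1, 21.9 and 20.6 CPM in bulk brain. Lama4, an endothelial chain, was at 0.0795, 0.504, 0.154, 0.239 and 0.250 CPM and at 5.17, 4.73, 9.68, 10.5 and 9.94 CPM. Lama5, the other main endothelial chain, was at 4.09, 3.84, 1.81, 1.71 and 1.29 CPM and at 10.7, 8.46, 18.9, 19.7 and 16.2 CPM. The groups were separate for each of these 3 genes, with log2 differences of −4.86, −5.00 and −2.53 (edgeR adjusted p of 1.2e-06, 6.0e-07 and 5.4e-05), and bulk brain replicates 1 and 2 were the lowest of their group. Against those 2 libraries alone, the differences of Lama2 and Lama4 were −4.18 and −4.40.

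Lama1, the chain of the embryonic and meningeal basement membrane, was at 0, 0.0776, 0.0386, 0.0796 and 0.125 CPM in microglia and at 5.09, 4.04, 7.42, 7.16 and 7.87 CPM in bulk brain. Lama3, the chain of epithelial laminins, was at 0.676, 0.504, 0.231, 0 and 0.250 CPM and at 3.29, 2.31, 9.21, 8.97 and 8.84 CPM. Neither gene's groups overlapped, and the log2 differences were −6.54 and −4.27 (edgeR adjusted p of 6.2e-08 and 8.2e-05). That of Lama3 was −3.15 against bulk brain replicates 1 and 2 alone and −4.90 against replicates 3 to 5 alone.

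The beta and gamma chains held the members nearest to equal levels. Lamb2, a beta chain of vessels and synapses, was at 38.5, 40.6, 39.1, 38.0 and 30.6 CPM in microglia and at 32.6, 35.2, 28.1, 32.4 and 32.3 CPM in bulk brain. The groups overlapped through microglia replicate 5, which lay below 4 of the bulk brain libraries. The log2 difference was 0.22 ± 0.11, with an edgeR adjusted p of 0.081. It passed the threshold without that library (0.30, adjusted p of 0.020) and with upper-quartile scaling (0.29, adjusted p of 0.027), and in no other setting. With library size alone it was 0.030 (edgeR adjusted p of 0.80), the lowest value over the settings, so its size depended on the scaling. Lamc1, the gamma chain of most laminins, was at 22.4, 22.3, 19.97, 19.6 and 20.1 CPM in microglia and at 29.2, 18.1, 42.8, 41.6 and 42.5 CPM in bulk brain. Bulk brain replicate 2 lay below every microglia library and the other 4 above. The log2 difference of −0.74 ± 0.21 (edgeR adjusted p of 0.0070) was −0.28 against bulk brain replicates 1 and 2 alone, with an adjusted p of 0.19.

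Lamb1, Lamb3 and Lamc3 were far lower in microglia, and each passed the low-count filter through bulk brain alone. Lamb1, the beta chain that pairs with Lamc1 in the main vessel laminins, was at 0.477, 0.543, 0.771, 1.11 and 0.250 CPM in microglia and at 25.03, 23.6, 29.0, 31.0 and 25.4 CPM in bulk brain, with separate groups and a log2 difference of −5.39 (edgeR adjusted p of 1.0e-08). Lamb3, an epithelial beta chain that shares its span with Hsd11b1, G0s2 and Gm37691, was at 0, 0, 0.308, 0 and 0.250 CPM and at 3.61, 3.98, 3.57, 3.45 and 3.33 CPM. Summed counts in microglia and bulk brain were 14 and 605 for Lamb3 and 11 and 3042 for Hsd11b1. They were 123 and 806 for G0s2, and 29 and 353 for Gm37691, which lies on the strand of Lamb3. The part of these overlapping genes in the Lamb3 counts was not tested. Lamc3, a gamma chain known from the cortex and retina, was at 0.517, 0.155, 1.04, 0.159 and 0.125 CPM and at 5.72, 5.69, 9.32, 8.97 and 7.16 CPM. Lamb3 and Lamc3 had separate groups, with log2 differences of −4.96 and −4.18 (edgeR adjusted p of 4.1e-05 and 1.3e-05). Without microglia replicate 3, which was the highest for both, the differences were −5.79 and −4.91.

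Per kb of gene length, the order of the members' levels in microglia was Col27a1 (41.4 ± 1.998 CPM per kb), Col15a1 (15.5 ± 1.01), Lamb2 (6.14 ± 0.645), Col6a3 (4.13 ± 0.608) and Lamc1 (2.52 ± 0.163), and neighbours in this order were separated by more than their SDs. In bulk brain it was Col6a1 (9.59 ± 0.547), Col4a2 (6.63 ± 1.08), Col9a3 (6.51 ± 2.58), Lamb2 (5.28 ± 0.418) and Col4a1 (4.73 ± 0.775), where from Col4a2 onward neighbours lay within their SDs of each other. The chain that led in microglia, Col27a1, was at 1.22 ± 0.115 CPM per kb in bulk brain.

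**Figure D4:**
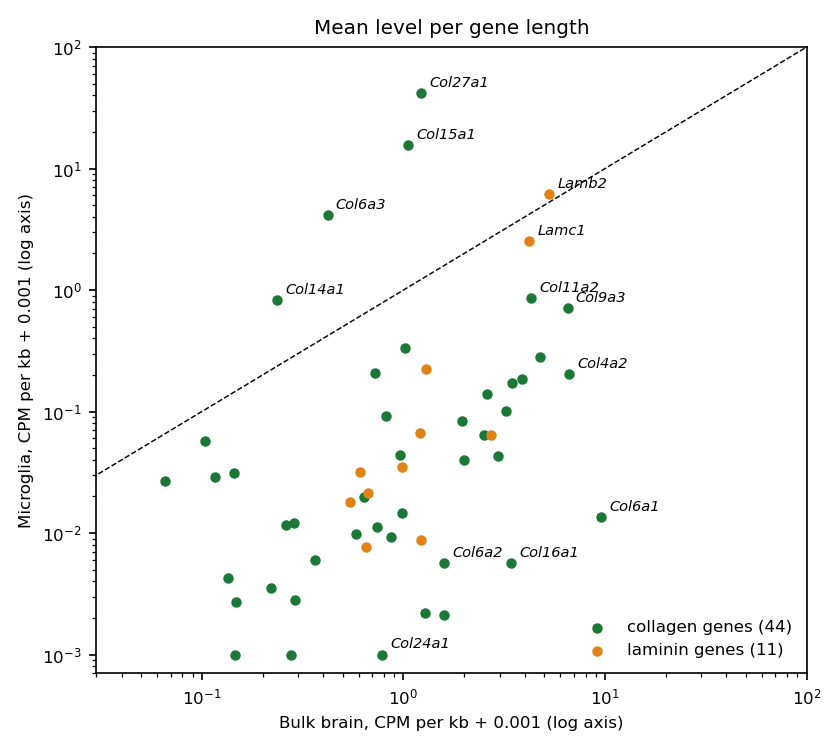
Each point is 1 of the 55 chains at its mean CPM per kb of gene length plus 0.001, in bulk brain (horizontal) and microglia (vertical), both on log axes, with equal levels on the dashed line. Col27a1, Col15a1, Col6a3 and Col14a1 lie above the line, Lamb2 and Lamc1 close to it, and most chains well below.

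Markers of other cells were measured beside these falls. The 12 endothelial markers summed to 93.5 to 130 CPM over the microglia libraries, against 299.8 to 347 CPM in bulk brain, and their median level in microglia was 16.9% of bulk brain. Of these 12, 10 were lower, Pecam1, which some immune cells also carry, was higher (41.7 against 18.3 CPM) and Kdr did not pass the test. The corresponding medians were 7.64% for 12 mural markers (12.96 to 29.1 CPM in microglia), 2.59% for 12 fibroblast and meningeal markers (6.37 to 12.2 CPM) and 12.4% for 10 choroid plexus and ependymal markers (55.7 to 161 CPM, of which Ttr had a mean of 97.6). They were 0.702% for 8 astrocyte, 0.990% for 8 oligodendrocyte and 0.111% for 8 neuron markers. No listed marker was at 0 counts over the microglia libraries. The members' median was 3.11%. The 8 markers of border macrophages, which the CD11b sort also takes, summed to 499 to 647 CPM in microglia, with replicate 4 the highest, and to 11.1 to 12.9 CPM in bulk brain. In microglia replicate 4, Col27a1 was at 512 CPM, Col15a1 at 89.2, Col6a3 at 41.6 and Col14a1 at 6.09. The part of border macrophages in the members' levels was not tested.

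The genes that act on these chains were counted in 4 lists of 94 genes, chosen with earlier results of these data known. Of these genes 89 were tested, with 33 higher, 48 lower and 8 that did not pass. Beside 37.2% higher and 43.9% lower over all genes tested, the number that rose was near the share of all genes. Of the 89, 27 passed the low-count filter through bulk brain alone and 3 through microglia alone, so that the filter favoured their direction. Of 18 basement membrane partners, 3 rose and 15 fell, with a median log2 difference of −3.38, and 8 of the 18 passed the filter through bulk brain alone. Nid2, a nidogen that links laminin to type IV collagen, rose from 4.83 ± 1.70 CPM in bulk brain to 54.1 ± 4.15 CPM in microglia (log2 difference 3.48, edgeR adjusted p of 5.5e-08), while its paralogue Nid1 fell from 13.9 ± 5.32 to 0.964 ± 0.582 CPM. Sparc, a collagen-binding protein, had 2978 ± 105 CPM in microglia against 640.0 ± 118 CPM in bulk brain. Smoc2, a SPARC relative, was without a count in microglia, which puts it at least 363-fold below bulk brain.

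Of 31 tested genes of collagen maturation, 11 rose and 16 fell, with a median of −0.96, and 12 passed the filter through bulk brain alone. The number that rose was near the share over all genes, 37.2%. P3h2, a prolyl 3-hydroxylase of collagen, rose most, from 1.92 ± 1.15 to 123 ± 6.53 CPM (log2 difference 6.02, edgeR adjusted p of 1.5e-07), or by 5.35 against bulk brain replicates 3 to 5 alone and 7.34 against replicates 1 and 2 alone. The prolyl 4-hydroxylase gene P4ha1 and the lysyl hydroxylase genes Plod1 and Plod3 rose by 3.40, 3.39 and 3.36 on the log2 scale. Serpinh1, the collagen chaperone HSP47, was at 0.998 ± 0.592 CPM in microglia against 18.7 ± 2.82 CPM in bulk brain (log2 difference −4.22, edgeR adjusted p of 4.8e-07). Adamts3, a protease that removes the end of procollagen, had 0 counts in microglia and 7.34, 1.85, 22.8, 20.5 and 21.7 CPM in bulk brain, and was thus at least 607-fold lower.

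Of 18 tested genes of collagen breakdown and uptake, 10 rose and 7 fell, with a median of 0.87. Over all genes tested, 37.2% were higher and 43.9% lower. Of the 18, 2 passed the low-count filter through bulk brain alone and 1 through microglia alone. Ctss, the lysosomal protease cathepsin S and a known microglial gene, had 4725 ± 165 CPM in microglia against 43.1 ± 12.3 CPM in bulk brain (log2 difference 6.78, edgeR adjusted p of 9.5e-11). Timp4, an inhibitor of matrix metalloproteinases, fell by 7.96 on the log2 scale, to 0.227 ± 0.190 CPM from 58.4 ± 14.9. Of 22 tested receptors, 9 rose and 10 fell, with a median of −0.09, and both counts were near the shares over all genes (37.2% and 43.9%). Bulk brain alone took 5 of the 22 through the low-count filter, and microglia alone 1. Lair1, an inhibitory collagen receptor of immune cells, had 685 ± 39.7 CPM in microglia against 6.27 ± 1.198 CPM in bulk brain (log2 difference 6.77, edgeR adjusted p of 1.5e-11), and Ddr1, a collagen-binding receptor kinase, 0.810 ± 0.161 and 85.6 ± 7.70 CPM (log2 difference −6.72, edgeR adjusted p of 1.1e-11).

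**Figure D5:**
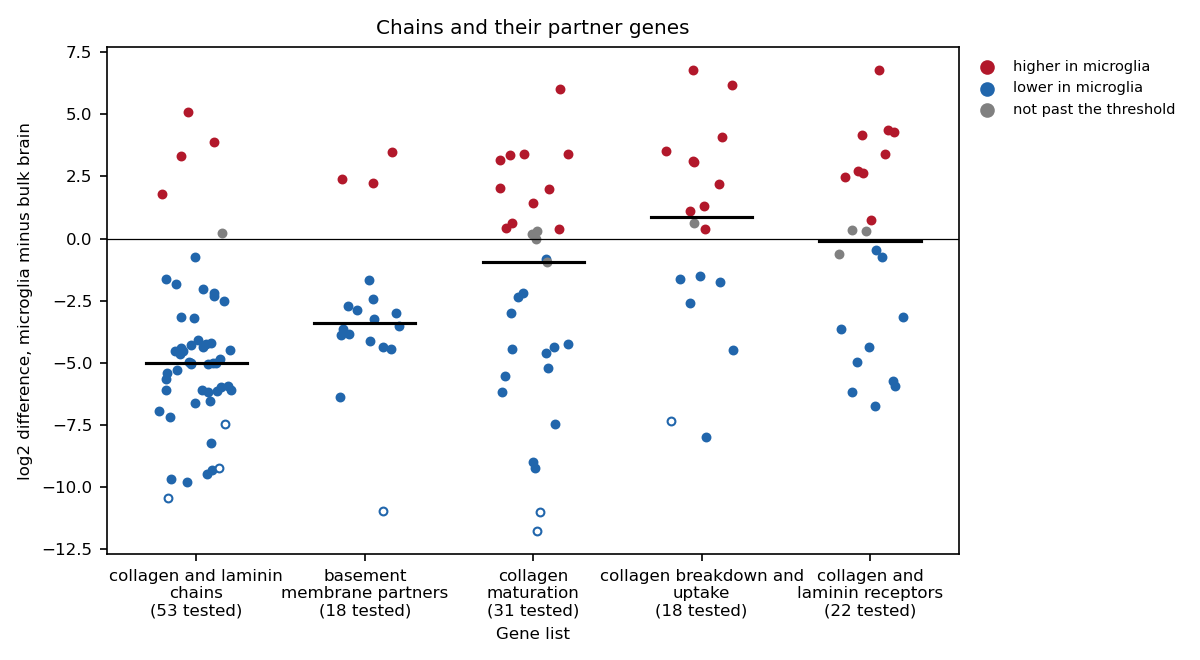
Points are the log2 differences (microglia minus bulk brain) of the tested genes of the chains and of the 4 lists of genes that act on them, coloured by the outcome of the test, with a line at the median. The medians lie at −5.00 for the chains (−1.81 over the 15 with enough counts in both groups), −3.38 for basement membrane partners, −0.96 for maturation, 0.87 for breakdown and uptake and −0.09 for receptors, and open points had 0 counts in microglia.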

How the data were processed

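Raw counts per gene, with no normalization, were deposited by the authors in 1 table of 56748 genes and 10 libraries. Each of its 10 value columns names a sample of the labels, and 0 do not. Gene symbols, biotypes, gene lengths (the deposited length in bases) and 1-based coordinates are those of the same table, per the file headers. CASAVA, HISAT2 2.2.1, featureCounts 2.0 and GRCm39 (mm39) are named in the submitters' processing notes, with no role or order. Strand setting, treatment of reads with several map positions, and annotation release: not given in the sources used here, so overlapping genes (34 members overlap another gene) are uncertain.

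Genes were filtered with filterByExpr by group (at least 10 counts, about 0.356 CPM, in 5 libraries), scaled by TMM and compared by the quasi-likelihood test of edgeR 4.0.16 (R 4.3.3, limma 3.58.1), in a model of group alone, with all 10 libraries in the fit and Benjamini-Hochberg adjustment over all genes tested. The SE is the size of the log2 difference divided by the square root of the F statistic. CPM use TMM-scaled totals. Where a group had 0 counts, the fold was taken against 3 counts summed over its libraries, and ratios with 1 to 3 counts have an exact interval; both cover counting error only. The text names the higher members, the 12 with the highest CPM per kb in bulk brain, the 8 with the highest CPM in microglia, the type IV collagens, the laminins and, from each other list, the gene with the largest change in each direction; other genes are named with their values known. The members were set by symbol, but these gene families and the lists were chosen with earlier results of these data known. Alternatives were other scalings, no filter, DESeq2 1.42.0, limma-voom, a replicate block and leaving out each library; those with parts of the bulk brain libraries were chosen after seeing the data. RefSeq promoter entries on GRCm38.p6 were found for 40 of the 55 members. The values of 1 laminin chain are not reported here, although it is in the counts of members.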

Additional observations from a re-analysis of the deposited data

Results flagged for a closer look

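In the 65 groups of 5 libraries of a member with a mean of at least 1 CPM, 4 had a library far from the other 4, where chance alone gives about 1 in 20. Col4a2 was at 2.83 CPM in microglia replicate 2, against 0.716 to 1.27 CPM in the other 4 microglia libraries. Lamb2 was at 30.6 CPM in microglia replicate 5, against 38.0 to 40.6 CPM in the other 4. Col20a1 was at 3.64 CPM in bulk brain replicate 1, against 5.46 to 5.90 CPM in the other 4 bulk brain libraries. Col7a1 was at 10.4 CPM in bulk brain replicate 2, against 6.39 to 7.21 CPM in the other 4.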

How the results depend on the processing

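Over 19 other settings, no named result changed direction. The count of higher members was 4, or 5 with upper-quartile scaling and without microglia replicate 5, where Lamb2 was added. Without each library in turn, 4 to 5 members were higher and 48 lower, and 32 to 34 partner genes were higher and 48 to 50 lower. The count of lower members was 49 with no filter on low counts and against bulk brain replicates 3 to 5 alone, where Col6a6 was added. It was 45 against bulk brain replicates 1 and 2 alone, without Col4a3, Col4a4 and Lamc1. Other scalings moved the median of all genes from −0.14 to between −0.33 and −0.07. With the replicate number as a block, 4 members were higher and 48 lower, and 33 partner genes were higher and 47 lower. The correlations of the deviations of microglia and bulk brain samples with the same number were −0.045 to 0.019, and no sample correlated best with its own number. Bulk brain deviations also hold the split of replicates 1 and 2 from 3 to 5. These correlations therefore cannot decide whether samples with the same number share an animal. At this depth, members under 1 CPM in microglia rest on few counts, and a count of 0 in a library allows up to 3 counts.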
